A study of Mus musculus with 9 samples.

Results

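The sodium-potassium pump genes described here are Atp1b1, Atp1b2, Fxyd1 and Fxyd7, taken as every probe set whose annotated gene symbol is one of these 4, among 8251 genes named on the array. They were measured by 6 of its 12488 probe sets: a pair each for Atp1b1 and Atp1b2, and 1 each for Fxyd1 and Fxyd7. All 6 were bright enough to be tested, and no value of theirs was an exact 0 or lay at the floor set for dim signals. The arrays held RNA from the whole spinal cord of B10.PL mice, 9 samples with 1 array each. Naive mice made up the first group (replicates 2, 3 and 4). The others had experimental autoimmune encephalomyelitis (EAE), in which immune cells attack brain and spinal cord, a mouse counterpart of multiple sclerosis. They received placebo (replicates 1, 5 and 10) or calcitriol (replicates 6, 7 and 8), which is hormonally active vitamin D, at 200 ng, and their cords were taken 6 h later. The labels state no treatment for the naive mice, so EAE and the placebo treatment cannot be told apart in comparisons with naive cord. For calcitriol replicate 6 the title gives the D2 form, whereas the description of each sample gives the D3 form. Nothing says whether the replicates of a group were separate animals, so the p-values measure only the spread between these samples, which may be technical.

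The sodium-potassium pump moves sodium out of the cell and potassium in at the cost of ATP, and so restores the ion gradients that action potentials and transmitter uptake use up. It consists of a catalytic alpha subunit, which splits ATP, a beta subunit, a glycoprotein needed to fold the alpha subunit and bring it to the membrane, and often a small FXYD protein that tunes its affinity for ions. Neurons and astrocytes rely on it heavily, neurons to recover from firing and astrocytes to take up potassium and glutamate. The catalytic subunits were not analysed here.

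Fxyd7, a small regulator of the pump found mainly in the brain, was the member that changed. It was lower in calcitriol-treated EAE than in naive cord. Atp1b1 and Atp1b2 gave different answers with their separate probe sets, and no difference of theirs passed the test. Fxyd1 was nearly the same on all arrays. The array-by-array plot of signals shows all 6 probe sets.

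**Figure D1:**
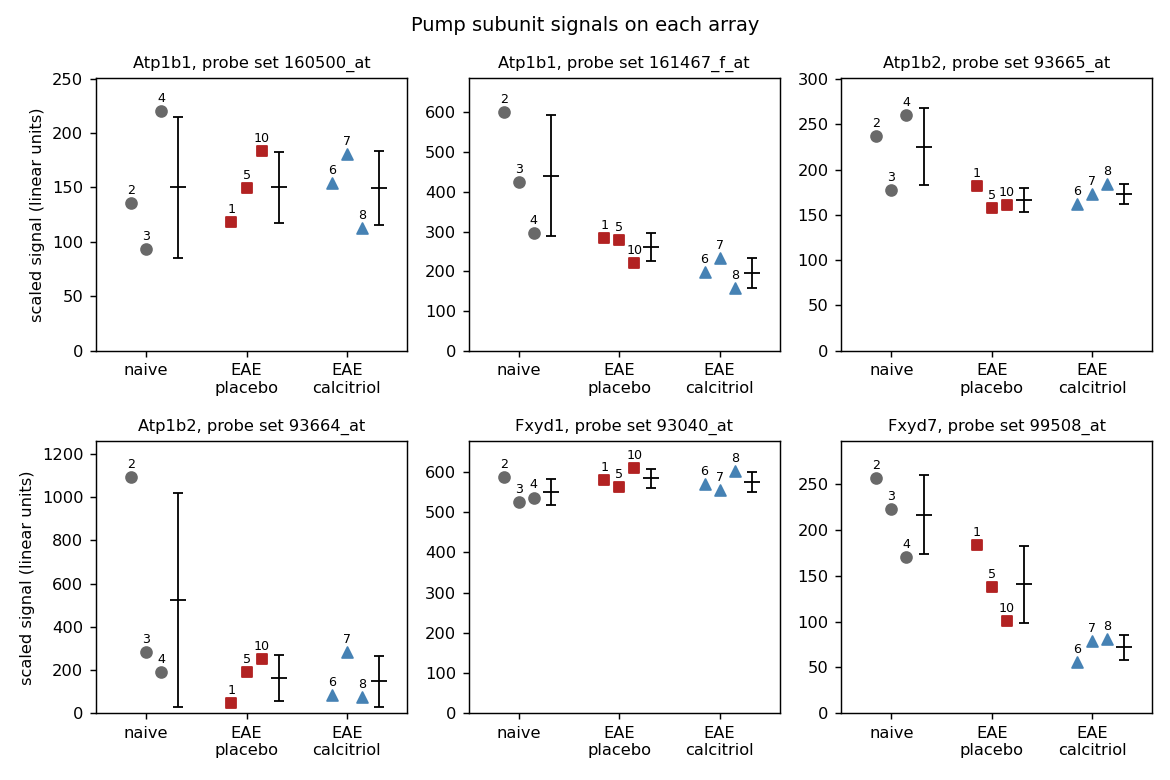
Scaled signal (linear units, each panel with its own axis from 0) of each pump subunit probe set on each array, with naive arrays as circles, placebo arrays as squares, calcitriol arrays as triangles and replicate numbers above them. Bars beside the points give mean ± SD (n = 3), and the Fxyd7 signals of the calcitriol arrays, 56.0 to 80.9, lie below those of all other arrays.

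The beta subunit Atp1b1, the partner of the pump in most neurons, was read by probe sets 160500_at and 161467_f_at. The letter f in the second name marks probes that may also match related transcripts. With 160500_at, the naive signals were 135.9, 93.5 and 220.7 on replicates 2, 3 and 4. The placebo signals were 118.0, 149.5 and 183.3 on replicates 1, 5 and 10, and the calcitriol signals 154.5, 180.6 and 113.1 on replicates 6, 7 and 8. The 3 groups overlapped widely, and their means were 150.0 ± 64.7, 150.3 ± 32.6 and 149.4 ± 34.0 (SD, n = 3). The largest difference of the 3 comparisons, placebo against naive, was 0.07 ± 0.33 log2 (SE, limma Benjamini-Hochberg adjusted p = 0.974). Its 95% interval, -0.66 to 0.80 log2, still allows a 1.59-fold lower or a 1.74-fold higher level. With array weights, which rest the naive group mostly on replicate 3, placebo stood at 0.52 and calcitriol at 0.54 log2 against naive (limma adjusted p = 0.279 and 0.225). Without naive replicate 3 both turned to the other side, at -0.23 and -0.24 log2.

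The brighter probe set 161467_f_at gave a different picture. Its naive signals were 601.1, 425.4 and 296.7 on replicates 2, 3 and 4. Its placebo signals were 283.5, 278.7 and 219.6 on replicates 1, 5 and 10. Its calcitriol signals were 197.4, 233.6 and 158.5 on replicates 6, 7 and 8. Every EAE array was below the lowest naive array, while placebo and calcitriol arrays overlapped. Placebo stood at -0.71 ± 0.26 log2 against naive (SE, limma adjusted p = 0.385) and calcitriol at -0.42 ± 0.26 log2 against placebo (SE, limma adjusted p = 1.0). Calcitriol against naive was -1.13 ± 0.26 log2, a 2.18-fold lower signal that did not pass the test (SE, limma adjusted p = 0.068). It passed without naive replicate 4 (limma adjusted p = 0.0266), with array weights (0.00537) and with exact zeros taken as missing (0.0281). Across the 9 arrays the log2 signals of both Atp1b1 probe sets correlated at -0.22 (Pearson). The probe sets of Atp1b1 disagreed, and no single level is given for it.

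Atp1b2, the beta subunit also known as the adhesion molecule on glia, was read by 93665_at and 93664_at. With 93665_at, the naive signals were 237.5, 178.0 and 260.2 on replicates 2, 3 and 4. The placebo signals were 181.7, 157.2 and 161.4 on replicates 1, 5 and 10, and the calcitriol signals 162.1, 172.8 and 184.6 on replicates 6, 7 and 8. Naive replicates 2 and 4 were above every EAE array, and naive replicate 3 lay among them. The differences from naive were -0.42 ± 0.18 log2 for placebo (SE, limma adjusted p = 0.494) and -0.36 ± 0.18 log2 for calcitriol (SE, limma adjusted p = 0.478). The EAE groups differed by 0.06 ± 0.18 log2 (SE, limma adjusted p = 1.0). With array weights both differences from naive shrank, to -0.16 and -0.09 log2.

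The other Atp1b2 probe set, 93664_at, varied more within groups than between them. It read 1091.2, 286.0 and 191.2 on naive replicates 2, 3 and 4, 46.5, 192.4 and 252.1 on placebo replicates 1, 5 and 10, and 84.4, 282.1 and 77.3 on calcitriol replicates 6, 7 and 8. A single naive array, replicate 2, was 5.71-fold above the lowest of its group. The differences from naive were -1.57 ± 0.81 log2 for placebo and -1.67 ± 0.81 log2 for calcitriol (SE, limma adjusted p = 0.618 and 0.466). Without naive replicate 2 they were -0.83 and -0.93 log2. Only 2.69% of the tested probe sets had a larger spread within groups. Its log2 signals correlated with those of 93665_at at 0.38 over 9 arrays (Pearson).

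Astrocyte markers were measured beside Atp1b2. Of 22 astrocyte genes 15 were measured and tested, with 0 past the limma test in any comparison. At an unadjusted p under 0.05, 2 were higher and 0 lower in placebo against naive (9.33% of all tested probe sets). In calcitriol against naive 1 was higher and 1 lower (11.9% of all). These were Clu at 0.56 log2 and S100b at -1.49 log2 (limma adjusted p = 0.136 and 0.238). The median difference of the 15 genes was 0.03 log2 for placebo and -0.02 log2 for calcitriol against naive. The marker Gfap had an exact 0 on 1 naive array and read at most 1001.8 in that group. It read 2311.2 to 2714.2 in the placebo group and 913.8 to 1679.3 in the calcitriol group. Its difference in placebo against naive, 3.21 ± 1.24 log2, did not pass (SE, limma adjusted p = 0.422). The summed astrocyte signal ranged from 10404 to 15974 in the naive group, 12899 to 14852 in the placebo group and 10277 to 13875 in the calcitriol group.

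Fxyd1, or phospholemman, regulates the pump and is a main target of protein kinases A and C in heart and skeletal muscle. Its signals were 586.8, 525.4 and 536.4 on naive replicates 2, 3 and 4. They were 579.3, 563.1 and 610.3 on placebo replicates 1, 5 and 10, and 569.2, 554.7 and 602.5 on calcitriol replicates 6, 7 and 8. The groups overlapped, and the highest of the 9 arrays was 1.16-fold above the lowest. Of all tested probe sets, 99.9% had a wider range over the arrays. Placebo stood at 0.09 ± 0.11 log2 and calcitriol at 0.07 ± 0.11 log2 against naive (SE, limma adjusted p = 0.875 for both), and calcitriol at -0.02 ± 0.11 log2 against placebo (SE, limma adjusted p = 1.0). The 95% intervals of the 3 differences reach at most a 1.27-fold higher and a 1.21-fold lower level. All 15 skeletal muscle markers were measured and 0 passed the limma test in any comparison. At an unadjusted p under 0.05, 1 was higher and 0 lower in placebo against naive (9.33% of all tested probe sets). In calcitriol against naive 1 was higher and 0 lower (11.9% of all). The summed signal of these markers was 2928 to 4250 in the naive group, 3258 to 3491 in the placebo group and 3273 to 3847 in the calcitriol group.

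Fxyd7 lowers the affinity of the pump for potassium. Its signals were 255.7, 222.6 and 170.5 on naive replicates 2, 3 and 4. On placebo replicates 1, 5 and 10 they were 183.7, 137.1 and 100.7. On calcitriol replicates 6, 7 and 8 they were 56.0, 78.3 and 80.9. Naive and placebo arrays overlapped through placebo replicate 1 and naive replicate 4, whereas every calcitriol array was below every other array. Group means were 216.2 ± 43.0, 140.5 ± 41.6 and 71.7 ± 13.7 (SD, n = 3) for naive, placebo and calcitriol.

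Fxyd7 fell in calcitriol-treated EAE against naive cord, by 1.59 ± 0.28 on the log2 scale (SE, n = 3 per group, limma Benjamini-Hochberg adjusted p = 0.0195). This is a 3.01-fold lower signal, with a 95% interval of -2.21 to -0.97 log2. It was lower in 3 of 3 calcitriol arrays than in any naive array. Fxyd7 was the only one of the 6 pump subunit probe sets past the threshold, and 2 of 6 (with 161467_f_at) had calcitriol and naive arrays without overlap. Over all 12177 tested probe sets, 2.00% passed in this comparison and 16.1% had no overlap. In the downward direction 0.320% passed. The call ended without naive replicate 3 (limma adjusted p = 0.0843), calcitriol replicate 6 (0.0737) or calcitriol replicate 8 (0.0695), and with the values as deposited (0.0506). Without naive replicate 2, which stands apart from the other naive arrays, it was -1.46 ± 0.30 log2 (SE, limma adjusted p = 0.0329).

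The steps between these groups did not pass the test. Placebo stood at -0.64 ± 0.28 log2 against naive (SE, limma adjusted p = 0.494), with an interval from -1.26 to -0.03 log2. Calcitriol stood at -0.95 ± 0.28 log2 against placebo, a 1.93-fold lower signal (SE, limma adjusted p = 1.0). Its unadjusted p was 0.00691, which ranked 36 among the 12177 tested probe sets. Of the 6 pump subunit probe sets, 1 had calcitriol and placebo arrays without overlap, where 9.99% of all tested probe sets did. In limma, 0 probe sets passed this comparison after adjustment, and 314 had an unadjusted p under 0.05 (2.58%). In placebo against naive, 0 of 6 passed in limma where 0.936% of all tested did, 3 of 6 had an unadjusted p under 0.05 (9.33% of all), and 1 of 6 had no overlap (14.5% of all). The comparisons share arrays, so their values for a gene are not independent of each other.

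**Figure D2:**
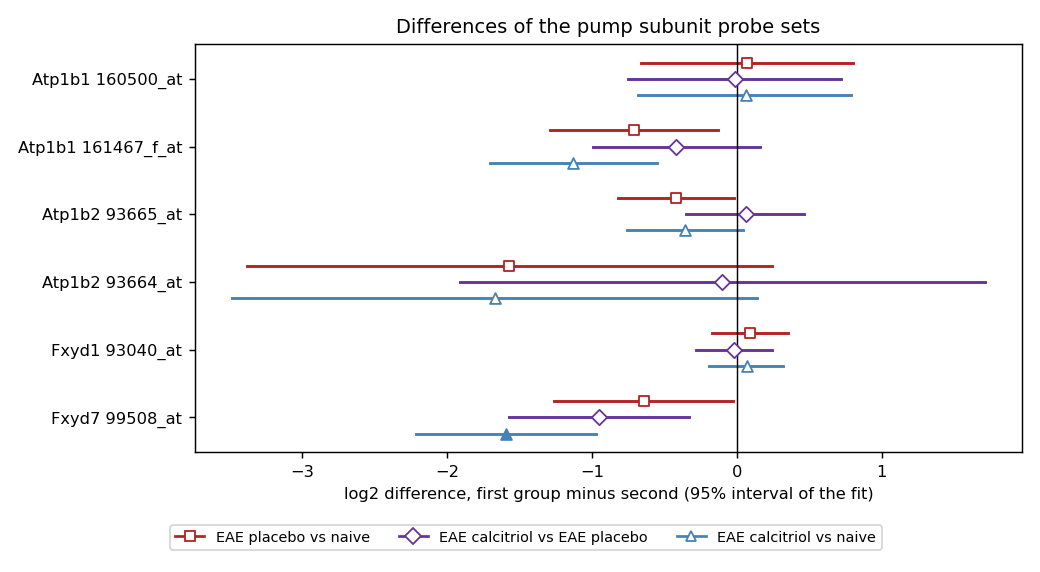
Log2 difference (first group minus second) of each pump subunit probe set in the 3 comparisons, with the 95% interval of the limma fit as a line; a filled symbol marks an adjusted p under 0.05. The single filled symbol is Fxyd7 in calcitriol against naive, at -1.59 log2, and the intervals of Fxyd1 are the shortest.

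Neuron and myelin markers and a measure of the RNA were set beside Fxyd7. Of 33 neuron markers 28 were measured and 27 tested. In calcitriol against naive 1 fell (Cplx1, the presynaptic protein complexin 1), 0 rose and 26 did not pass. Of all tested probe sets, 2.00% passed in this comparison. At an unadjusted p under 0.05 (limma), 14 of 27 were lower and 1 was higher, where 11.9% of all had such a p. For 15 of 27, all calcitriol arrays were below all naive arrays, where 16.1% of all had no overlap in either direction. The median of the neuron markers was -0.67 log2, where that of all tested probe sets was -0.02, and 22 of 27 were below 0. Their summed signal was 15499 to 26390 in the naive group, 11128 to 14690 in the placebo group and 10231 to 11312 in the calcitriol group, and no measured neuron marker was at the floor on all arrays. Of 20 oligodendrocyte and myelin genes 11 were measured. In calcitriol against naive 1 of them fell (Mog, a myelin surface protein) and 0 rose. Mog stood at -1.83 log2 (limma adjusted p = 0.0158), and was the 1 gene of the 11 lower than Fxyd7. At an unadjusted p under 0.05 (limma), 6 of 11 were lower and 0 higher. For 6 of 11, all calcitriol arrays were below all naive arrays. The shares of all tested probe sets are those given for the neuron markers. The summed signal of the 11 genes was 7651 to 11296 in the naive group, 7444 to 7954 in the placebo group and 5409 to 8180 in the calcitriol group. It includes an exact 0 for Mbp on 1 naive array. The beta-actin 5′ minus 3′ log2 difference, a measure of how far the labelled RNA reached toward the 5′ end, was -0.25 to 0.12 in the naive group, -1.11 to -0.42 in the placebo group and -0.83 to -0.52 in the calcitriol group. The calcitriol values lie within the placebo range, and every EAE array was below every naive array in this measure. Against naive cord, this measure and the group therefore cannot be told apart. The summed myelin signals of calcitriol replicates 6 and 8, 5409 and 5614, lay below those of all other arrays, and replicate 7 read 8180. In calcitriol against naive the median of the myelin genes was -0.59 log2, and 9 of 11 were below 0. The part of these measures in the lower Fxyd7 signal was not tested. In bulk cord, fewer cells of a type and less RNA per cell cannot be told apart.

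Fxyd7 lay at the lower end of the neuron markers. In calcitriol against naive, 0 of 27 were lower than Fxyd7, and the nearest was Cplx1 at -1.59 log2 (limma adjusted p = 0.0126, and 0.0712 without calcitriol replicate 8). Against placebo, 1 of 27 was lower, Prph, the intermediate filament peripherin, at -1.03 log2. The median of the markers in that comparison was -0.18 log2. In placebo against naive 6 of 27 were lower than Fxyd7, and the median was -0.44 log2. An exact 0 on 1 naive array stood behind 5 markers, among them Nefl, Stmn2 and Ina, the highest points of the list. The other 22 had a median of -0.77 log2 in calcitriol against naive.

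**Figure D3:**
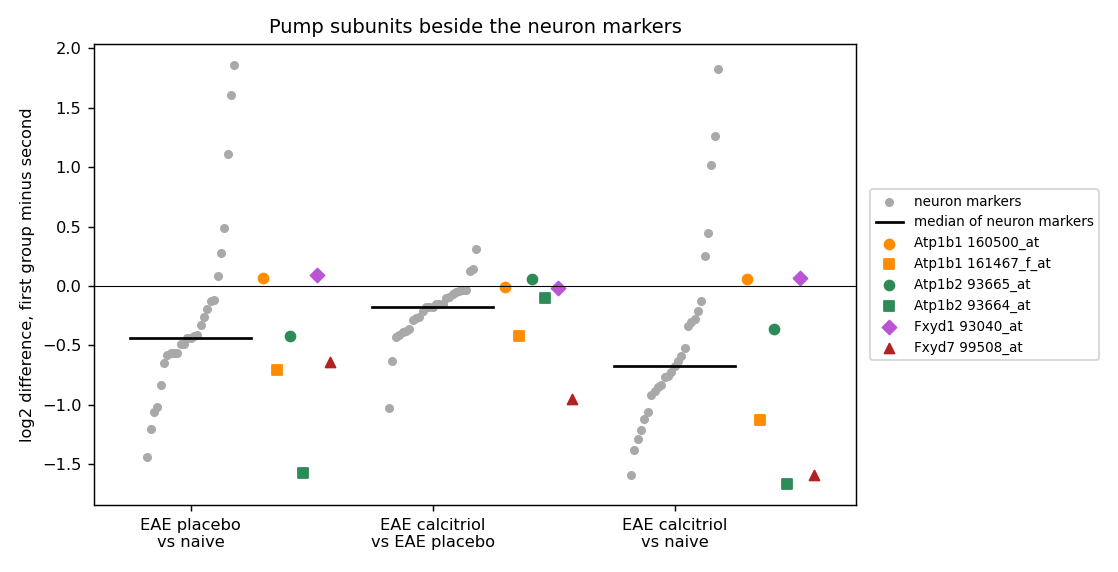
Log2 difference (first group minus second) of 27 neuron markers (grey points, sorted, with their median as a line) and of the 6 pump subunit probe sets (coloured symbols) in the 3 comparisons. Fxyd7 is below the neuron median in all 3, at -1.59 against -0.67 log2 in calcitriol against naive, and Fxyd1 is near 0.

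Fxyd7 lies on mouse chromosome 7 in a run of genes of its own family (RefSeq annotation of GRCm38.p6). In order, the protein-coding genes are Fxyd5, Fxyd7, Fxyd1, Lgi4 and Fxyd3, all measured here. The neighbours of Fxyd7 had other patterns. Fxyd5, or dysadherin, which modulates both the pump and cell adhesion, read 65.5, 53.7 and 34.0 on naive replicates 2, 3 and 4. It read 116.4, 155.1 and 136.4 on placebo replicates 1, 5 and 10, and 199.4, 111.2 and 287.7 on calcitriol replicates 6, 7 and 8. All EAE arrays were above all naive arrays, and the EAE groups overlapped.

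Fxyd5 rose 3.76-fold in calcitriol against naive (1.91 ± 0.37 log2, SE, limma adjusted p = 0.0306) and stood at 1.45 ± 0.37 log2 in placebo against naive (SE, limma adjusted p = 0.152). With array weights the placebo difference passed, at 1.38 log2 (limma adjusted p = 0.0317). The calcitriol call ended without any single placebo array (limma adjusted p = 0.0591, 0.0575 and 0.059 without replicates 1, 5 and 10). It also ended without naive replicate 3 (0.0902) or 4 (0.0747), without calcitriol replicate 6 (0.117) or 8 (0.145), and with only the 2 groups compared (0.126). Monocyte, macrophage and microglia markers were mostly higher too in EAE than in naive cord. Of 28 listed, 25 were measured. In calcitriol against naive 12 rose and 0 fell, where 2.00% of all tested probe sets passed. In placebo against naive 8 rose and 0 fell, where 0.936% of all passed. The summed signal of these markers was 4253 to 4526 in the naive group, 8020 to 10247 in the placebo group and 8824 to 13435 in the calcitriol group. None of the measured ones was at the floor on all arrays, and their part in the Fxyd5 result was not tested. Fxyd3, another pump regulator, stood at -0.03 ± 0.18 log2 in placebo (0.10 with the values as deposited) and 0.16 ± 0.18 log2 in calcitriol against naive (SE, limma adjusted p = 0.982 and 0.789). Lgi4, a secreted glial protein, had an exact 0 on naive replicate 3 and read 271.4 to 514.3 on the other 8 arrays.

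**Figure D4:**
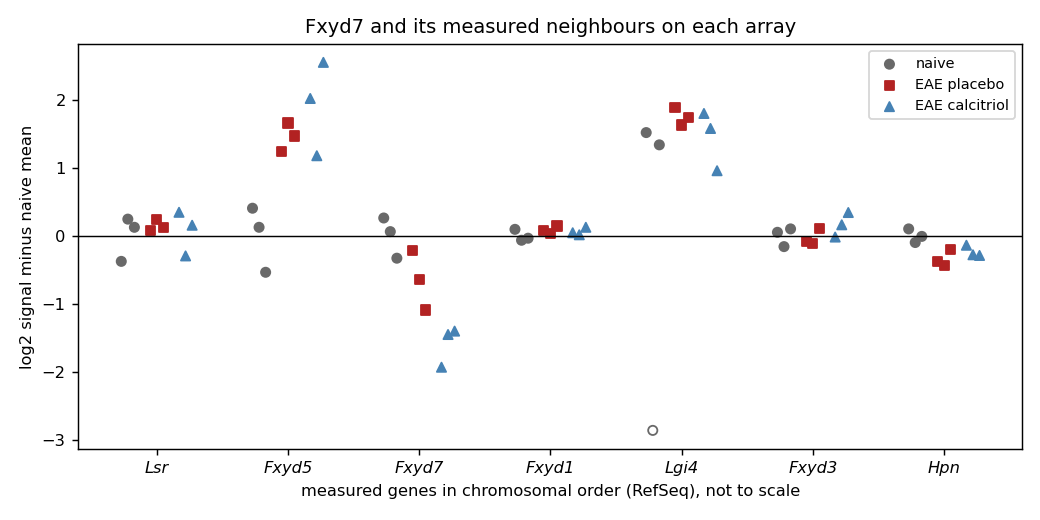
Log2 signal of Fxyd7 and its measured neighbours on each array, minus the mean of the naive arrays of that gene; genes are in chromosomal order, not to scale, and the open circle is an exact 0 raised to the floor. Fxyd5 is higher and Fxyd7 lower on every calcitriol array than on every naive array, and Fxyd1, the gene after Fxyd7, is near 0 on all arrays.

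Of 14 further genes of the pump family and its closest relatives, 6 were measured. In calcitriol against naive 1 rose (Fxyd5), 0 fell and 5 did not pass, where 2.00% of all tested probe sets passed. At an unadjusted p under 0.05, 2 were higher and 1 lower in this comparison (11.9% of all tested probe sets had such a p). In both other comparisons 0 of 6 passed in limma. At an unadjusted p under 0.05 there were 1 higher and 1 lower in placebo against naive (9.33% of all). In calcitriol against placebo there were 0 (2.58% of all). The beta subunit Atp1b3 stood at 0.23 ± 0.23 log2 in placebo and 0.19 ± 0.23 log2 in calcitriol against naive (SE, limma adjusted p = 0.829 and 0.817). The placebo value was 0.50 log2 without naive replicate 2 and 0.00 log2 without naive replicate 4, and the calcitriol value ran from -0.03 to 0.46 log2 without single arrays. Fxyd2, the gamma subunit best known from kidney, read 469.5 to 577.5 in the naive group, 351.5 to 422.7 in the placebo group and 358.7 to 448.4 in the calcitriol group. All EAE arrays were below all naive arrays for Fxyd2, at -0.48 ± 0.15 and -0.43 ± 0.15 log2, without passing the test (SE, limma adjusted p = 0.284 and 0.253). Of all tested probe sets, 14.5% had no overlap between placebo and naive arrays and 16.1% had none between calcitriol and naive arrays. The subunits of the related gastric proton pump, Atp4a and Atp4b, stood at -0.20 ± 0.18 and 0.51 ± 0.19 log2 in calcitriol against naive (SE, limma adjusted p = 0.728 and 0.284).

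Genes that work with the pump were given as 3 further lists. Of 18 measured genes of pump regulation and anchoring (25 listed), 1 rose and 0 fell in calcitriol against naive, with a median of -0.18 log2. The one that rose was Sgk1, a kinase that raises pump and sodium channel activity and is induced by glucocorticoids. Its difference was 1.17 ± 0.22 log2 (SE, limma adjusted p = 0.0276, with 0.0554 to 0.103 without naive replicate 3 or 4, placebo replicate 5 or any single calcitriol array, with no intensity trend or with only the 2 groups compared). Its placebo arrays differed from naive by 0.90 ± 0.22 log2 (SE, limma adjusted p = 0.133). Of 11 measured transporters that use the sodium gradient or clear potassium (21 listed), 0 passed in limma in calcitriol against naive, 2 were lower and 0 higher at an unadjusted p under 0.05, and 9 were below 0. Their median was -0.26 log2, and 11.9% of all tested probe sets had an unadjusted p under 0.05 in this comparison. The lowest unadjusted p belonged to Slc6a9, the glial glycine transporter, at -0.76 ± 0.19 log2 (SE, limma adjusted p = 0.102), followed by Slc12a2, the sodium-potassium-chloride cotransporter, at -1.02 ± 0.42 log2 (SE, limma adjusted p = 0.374). Of 12 measured other P-type ATPases (22 listed), 0 passed in limma in calcitriol against naive, 2 were lower and 0 higher at an unadjusted p under 0.05, and the median was -0.07 log2. Atp13a2, a lysosomal polyamine pump, differed by -0.45 ± 0.14 log2 (SE, limma adjusted p = 0.194). None of the 3 lists had a member past the limma test in placebo against naive or in calcitriol against placebo. At an unadjusted p under 0.05 there were 2 regulators, 1 transporter and 1 P-type ATPase in the former, where 9.33% of all tested probe sets had such a p, and 0 in the latter.

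By the representative probe set of each gene, the 4 members did not follow one pattern over the arrays. Log2 signals over the 9 arrays correlated at 0.55 for Atp1b2 and Fxyd7 and at -0.31 for Fxyd1 and Fxyd7. For Atp1b1, by 160500_at, and Fxyd7 the value was -0.30 (Pearson, as a description, since the arrays share the group differences). The other Atp1b1 probe set, 161467_f_at, was lower on every calcitriol array than on any naive array, as Fxyd7 was. Its correlation with Fxyd7 was not computed. The genes most like Fxyd7 were Acot7 (r = 0.990), a brain acyl-CoA thioesterase, Aatk (r = 0.975), a kinase of neural tissue, and Tagln3 (r = 0.972), a neuronal calponin-like protein. Their differences in calcitriol against naive were -0.67, -1.23 and -1.14 log2, smaller than that of Fxyd7. Those most like Atp1b2 were Lgr5 (r = 0.958), Sdc2 (r = 0.938) and Rhot1 (r = 0.907). Those most like Fxyd1 were Banf1 (r = 0.898), Akr1c21 (r = 0.894) and Gng10 (r = 0.888), over its 1.16-fold range of signal. The genes most like Atp1b1, by 160500_at, were Myh1 (r = 0.962), Tsks (r = 0.956) and Ms4a6b (r = 0.892), and Myh1 read at most 64.5 signal units on any array.

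Over the whole series, median deposited signals were 110.9 to 135.8 per array. Log2 signals of tested probe sets correlated at 0.765 to 0.878 between naive arrays, 0.921 to 0.936 between placebo arrays and 0.899 to 0.938 between calcitriol arrays. Naive replicate 2 was in the lowest pair. The tissue label was checked on markers: Nefm, a neurofilament of large axons, read 600.2 to 3304.9, the astrocyte water channel Aqp4 978.9 to 3332.2 and the myelin protein Mag 845.0 to 2331.5 over all arrays. The first marker of each of these lists, Nefl, Gfap and Mbp, had an exact 0 on 1 naive array. Mog, also among the first 3 measured myelin markers, read 39.3 to 197.3. With 3 arrays in each group, their number limits how precise any value is.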

How the data were processed

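Total RNA of spinal cord was hybridised to 1-colour oligonucleotide arrays, with 3 in each group. Each deposited value is a linear intensity per probe set; the tools and scaling behind them are not given in the sources used here. All arrays were brought to 1 mean signal, 192.8 (2% trimmed at each end, controls left out), lower values were set to 10% of that mean (19.3), and log2 was taken. Of 12422 probe sets outside 66 controls, the 12177 that exceeded this floor on 3 or more of the 9 arrays entered the test. limma 3.58.1 (R 4.3.3), with empirical Bayes and an intensity trend, fitted all 9 arrays with 6 residual degrees of freedom and gave the 3 comparisons. P-values were adjusted per comparison (Benjamini-Hochberg), and 0.05 was the limit. The fit was tested on simulated data. Python 3.11.15, pandas 2.3.3 and matplotlib 3.10.9 made summaries and plots.

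Gene symbols came from the platform annotation. A gene with several probe sets was represented by a plain probe set (no letter code), then the brightest, and both probe sets of Atp1b1 and Atp1b2 are given. Named were all members, all measured genes of the pump family, up to 3 genes with the smallest p of each pathway list, and the 3 genes most correlated with each member, and up to 3 of the first measured genes of a marker list served as tissue check. Cplx1, Prph, Nefl, Nefm, Stmn2, Ina, Gfap, Aqp4, Clu, S100b, Mbp, Mag, Mog and Lgi4 were picked once their values were known. The members and lists were chosen with earlier results of these data known. No sequence is shown and no genome position was used beyond gene order.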

Additional observations from a re-analysis of the deposited data

How the results depend on the processing

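Settings were changed one at a time: no scaling, quantile normalization, floors of 5% and 20%, no filter, a filter on the mean, exact zeros as missing, array weights, no intensity trend, only the compared groups, and each array left out. No paired analysis was made because the labels give no pairing. Fxyd7 in calcitriol against naive kept its direction in all of them, at -1.75 to -1.42 log2 without single arrays and -1.61 to -1.47 otherwise, and stayed past the threshold in 15 of 19; with values as deposited it was -1.47 log2 (limma adjusted p = 0.0506). Atp1b1 by 161467_f_at passed in that comparison with exact zeros missing (-1.13 log2) and array weights (-1.09), and ran from -1.38 to -0.87 without single arrays.

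Uncalled differences moved, and those near 0 turned their sign. Array weights gave 0.02 log2 for Atp1b1 by 160500_at and 0.15 for Atp1b2 by 93664_at in calcitriol against placebo, and moved 160500_at to 0.52 (placebo) and 0.54 (calcitriol) against naive. Without single arrays, 160500_at ran from -0.23 to 0.39 (placebo against naive), -0.17 to 0.18 (calcitriol against placebo) and -0.24 to 0.38 (calcitriol against naive). In calcitriol against placebo, 93664_at ran from -0.85 to 0.37, Fxyd1 from -0.06 to 0.01, Atp4a from -0.07 to 0.08, Fxyd2 from -0.07 to 0.13 and Atp1b3 from -0.17 to 0.05. Atp1b3 ran from -0.03 to 0.46 in calcitriol and 0.00 to 0.50 in placebo against naive. Fxyd3 in placebo against naive was 0.10 with values as deposited, 0.09 with array weights and -0.11 to 0.02 without single arrays. For these the cause was not tested.

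The number of probe sets past the threshold was 114 in placebo against naive (639 with array weights, 61 with only the compared groups, 20 to 176 without single arrays), 244 in calcitriol against naive (1014, 118 and 75 to 392) and 0 in calcitriol against placebo (0 to 1 without single arrays). The array weights were 0.259, 4.38 and 0.414 on naive replicates 2, 3 and 4.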
